A study of Homo sapiens with 19 samples.

Results

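The genes described here are 8 cell surface genes, measured by RNA sequencing in 3 human lymphoma lines: the SLAM family members SLAMF1, SLAMF6, SLAMF7, CD48, LY9 and CD84, and the plasma cell surface genes SDC1 and CD38. They were chosen by symbol, with earlier results of these data known. They came from the 25365, 25267 and 25266 genes of the OCI-LY10, TMD8 and SUDHL2 tables, and all 8 were present in each table. OCI-LY10, TMD8 and SUDHL2 are established lines of diffuse large B-cell lymphoma of the activated B-cell-like (ABC) subtype, whose cells resemble B cells on the way to becoming plasma cells. The cells had been transduced with shEGR1#8, with shEGR1#9 or with a control shRNA, and all groups, the controls included, received 20 ng/ml doxycycline for 2 days. EGR1 is an immediate early transcription factor, and the hairpin labels name it as the target. OCI-LY10 had 3 libraries in each of the shEGR1#8, shEGR1#9 and control groups, and TMD8 and SUDHL2 had 1 library in each. The series holds 19 samples, of which these 15 RNA libraries were used and the other 4, from chromatin immunoprecipitation, were not analysed here.

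SLAM family receptors are immunoglobulin-like proteins of blood cells. Most of them bind a copy of themselves on a neighbouring cell, and they signal through small adaptors and Src-family kinases, or through inhibitory phosphatases where the adaptors are missing. CD48 differs in that it is held in the membrane by a lipid anchor and binds CD244 and CD2. SLAMF7, CD38 and SDC1 (also called CD138) are familiar as surface markers of plasma cells and myeloma, and antibodies against SLAMF7 and CD38 are used to treat myeloma. CD38 consumes NAD at the cell surface, and SDC1 is a heparan sulfate proteoglycan that binds growth factors.

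The 6 SLAM family members lie in a single cluster on chromosome 1, in the RefSeq order SLAMF6, CD84, SLAMF1, CD48, SLAMF7, LY9, with CD244 next. SDC1 lies on chromosome 2 and CD38 on chromosome 4. RefSeq promoter windows (GRCh38.p14) were matched for 5 of the 8 members: SLAMF1, SLAMF6, CD48, SDC1 and CD38. The 250 bases before the gene start are shown for CD48 (chr1:160711823-160712072, minus strand, 43.2% GC) and CD38 (chr4:15778078-15778327, plus strand, 52.4% GC), since they are the members with a matched window whose levels were counted as different in a cell line below. Sequences read 5′ to 3′ in the direction of the gene, and capitals mark a match to a motif searched.
CD48 promoter: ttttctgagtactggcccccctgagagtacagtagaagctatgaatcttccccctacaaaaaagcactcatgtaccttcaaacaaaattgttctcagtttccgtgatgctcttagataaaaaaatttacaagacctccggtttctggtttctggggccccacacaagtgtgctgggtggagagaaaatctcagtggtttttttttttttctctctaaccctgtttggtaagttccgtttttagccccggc
CD38 promoter: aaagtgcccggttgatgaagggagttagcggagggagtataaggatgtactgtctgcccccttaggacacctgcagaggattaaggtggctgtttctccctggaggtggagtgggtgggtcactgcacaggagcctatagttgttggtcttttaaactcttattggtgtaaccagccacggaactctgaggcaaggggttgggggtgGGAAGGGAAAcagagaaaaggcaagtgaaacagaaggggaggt

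The motifs were searched by their letters on both strands in the 250 bases before the start. The capitals in the CD38 window are a match to an ETS-IRF composite element (GGAA and GAAA with 2 bases between them), which begins at position -43 and was found in 2.41% of all 35116 windows. The EGR1 core GCGNGGGCG, held by 8.41% of all windows, and the interferon-stimulated response element (GAAA and GAAA with 2 bases between them), held by 3.02%, had no match in the windows of the members. The NF-kB form (GGG and TCC with 4 bases between them), held by 19.9% of all windows, matched in 1 of the SDC1 windows at position -103 and in no other window of a member. The CD48 window had no match to any of the 4 motifs. The interferon-stimulated and ETS-IRF elements share their second part, so matches to them can overlap. These matches describe letters and not binding.

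Values were read as FPKM, fragments scaled to gene length and library size, though neither labels nor headers name the unit. On that reading, levels of different genes can be set side by side within a library. Library sums were 431993 to 445028 FPKM in OCI-LY10, and 10319 to 10499 genes reached 1 FPKM there. EGR1 itself averaged 14.0 ± 5.69 FPKM in libraries labelled shEGR1#8 and 15.1 ± 6.61 in those labelled shEGR1#9, against 10.2 ± 1.93 in controls (SD, n = 3 each; log2 difference of both labels 0.42, limma adjusted p = 0.349). In TMD8 it was 10.8 and 9.95 FPKM with shEGR1#8 and shEGR1#9 against 7.31 in the control, and in SUDHL2 13.7 and 15.4 against 17.0. A lower level of the target therefore does not bear out the labels in OCI-LY10 and TMD8, and every direction given here rests on the labels alone. Libraries of TMD8 stood apart from each other: short RNA genes took 61.5 and 58.0% of the FPKM with shEGR1#8 and shEGR1#9 against 36.3% in the control. Across 12734 genes, SUDHL2 libraries correlated with each other at 0.975 to 0.985, and OCI-LY10 libraries with those of TMD8 and SUDHL2 at 0.781 to 0.843. The TMD8 hairpin libraries correlated at 0.957 to 0.976 with SUDHL2 libraries and at 0.951 to 0.952 with their own control. The TMD8 control thus differed from them more than another cell line did. Whether a mix-up of libraries between these labels underlies this was not tested, and every TMD8 difference given here is read against that control. In SUDHL2 short RNA genes took 53.5 and 50.4% with the hairpins against 54.4% in the control, and in OCI-LY10 0.472 to 0.614%. All 8 B-cell markers reached 1 FPKM in each line. Of the 10 T-cell markers none did in OCI-LY10, and CD5, also found on some B cells, did in all TMD8 and SUDHL2 libraries. CD7 did in the SUDHL2 library labelled shEGR1#9, at 1.28 FPKM.

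Of the 8 members, SLAMF7, CD48 and CD38 were the ones with at least 1 FPKM in OCI-LY10, in all 9 libraries, and were always in the order SLAMF7, CD48, CD38. The ranges of neighbours in this order did not overlap in any group. SLAMF1, SLAMF6, LY9, CD84 and SDC1 stayed under 1 FPKM in all 9. In TMD8 the order was CD48, SLAMF7, SDC1, CD38, and in SUDHL2 CD48, SLAMF7, CD38, SDC1, in all 3 libraries of each line. SDC1, whose protein is the classical plasma cell marker, was at 3.43 to 5.37 FPKM in TMD8 and 1.25 to 1.79 in SUDHL2, but at 0 to 0.0983 in OCI-LY10. The tables may have been scaled separately, so levels across lines are a description.

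**Figure D1:**
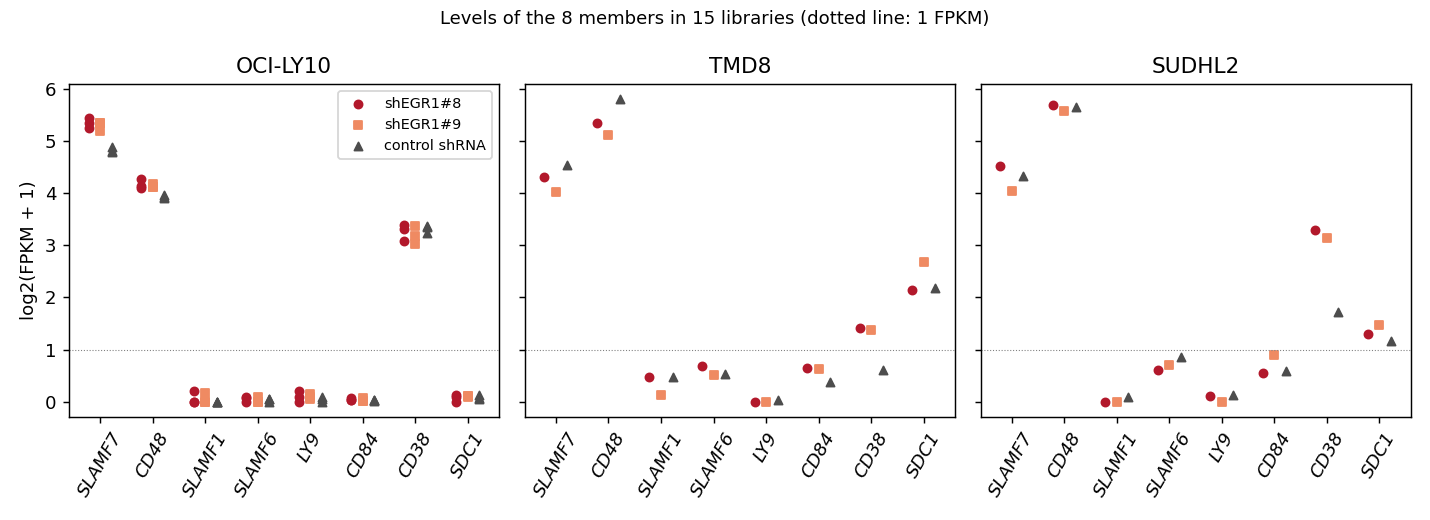
Level of each member in each of the 15 libraries, as log2(FPKM + 1), by cell line and label; the dotted line marks 1 FPKM. In OCI-LY10 SLAMF7, CD48 and CD38 stand above the line, and SDC1 does so in TMD8 and SUDHL2.

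SLAMF7, the self-binding receptor and antibody target of myeloma, was the highest member in OCI-LY10 and higher there in every hairpin library than in any control. The shEGR1#8 libraries had 42.1, 37.0 and 39.4 FPKM and the shEGR1#9 libraries 39.4, 35.5 and 39.6, against 26.9, 26.8 and 28.7 in the controls. The lowest hairpin library was thus above the highest control, and the hairpin groups overlapped each other. Means were 39.5 ± 2.58, 38.1 ± 2.32 and 27.5 ± 1.07 FPKM for shEGR1#8, shEGR1#9 and control (SD, n = 3 each). With both labels combined SLAMF7 rose by 0.48 log2 units (SE 0.0603, 95% interval 0.35 to 0.62, limma adjusted p = 0.00242). It rose with shEGR1#8 alone by 0.51 (limma adjusted p = 0.00585) and with shEGR1#9 alone by 0.46 (limma adjusted p = 0.00866). The difference of shEGR1#9 from shEGR1#8 was −0.05, with a 95% interval of −0.21 to 0.11 (limma adjusted p = 0.9997).

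CD48, the lipid-anchored ligand of CD244 and CD2, was also higher in all 6 hairpin libraries of OCI-LY10, by a smaller margin. The libraries labelled shEGR1#8 had 18.3, 16.5 and 16.0 FPKM and those labelled shEGR1#9 had 17.1, 16.4 and 16.2, against 14.0, 14.5 and 14.2 in the controls. Means were 16.9 ± 1.18 and 16.6 ± 0.465 FPKM with shEGR1#8 and shEGR1#9, and 14.3 ± 0.269 in controls (SD, n = 3 each). No hairpin library overlapped the controls. CD48 rose by 0.22 log2 units with both labels together (SE 0.0533, 95% interval 0.10 to 0.34, limma adjusted p = 0.0378). With each label alone it did not pass, at 0.23 for shEGR1#8 and 0.21 for shEGR1#9 (limma adjusted p = 0.0667 and 0.104). The call for both labels was lost under median-ratio scaling (limma adjusted p = 0.055), under quantile normalization (0.0774) and without any single control library (0.112 to 0.153) or any single shEGR1#9 library (0.0713 to 0.0826).

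CD38, the NAD-consuming ectoenzyme, did not pass the test in OCI-LY10. It had 8.86, 9.41 and 7.43 FPKM with shEGR1#8 and 7.10, 8.08 and 9.31 with shEGR1#9, against 9.19, 9.39 and 8.42 in controls. Of the 6 hairpin libraries 3 lay below all controls and 1 lay above, so the groups overlapped. Means were 8.57 ± 1.02, 8.17 ± 1.11 and 9.00 ± 0.511 FPKM for shEGR1#8, shEGR1#9 and control (SD, n = 3 each), and the log2 difference of both labels was −0.10, with a 95% interval of −0.31 to 0.11 (limma adjusted p = 0.525).

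**Figure D2:**
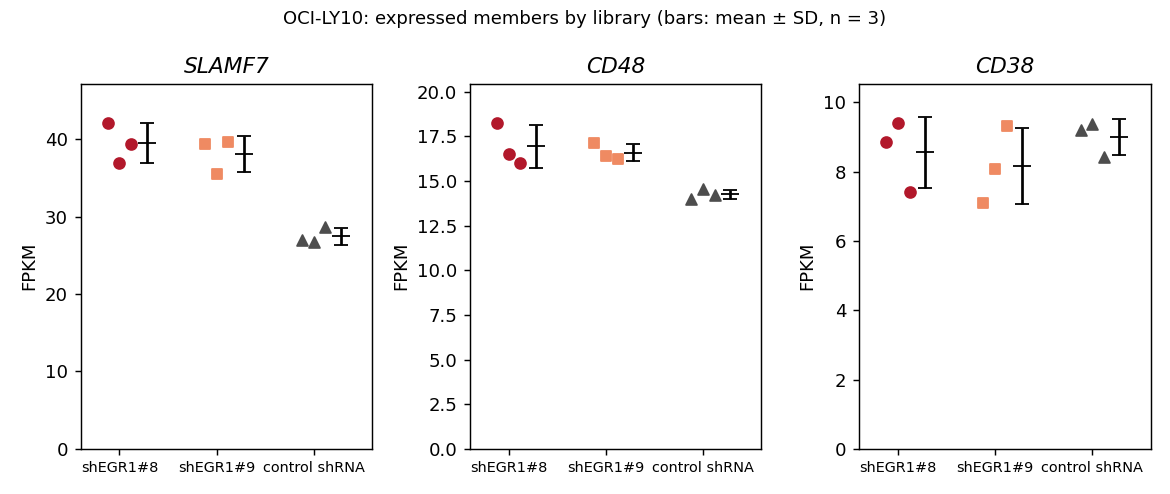
FPKM of SLAMF7, CD48 and CD38 in each OCI-LY10 library, by label, with the mean and SD of 3 libraries as bars. All hairpin libraries lie above all controls for SLAMF7 and CD48, and the groups overlap for CD38.

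Thus 2 of the 3 members tested in OCI-LY10 were called higher with both labels together and none lower, against 5.84% of all 10612 genes called higher, 2.71% called lower and 8.56% called in either direction. That is 620 genes higher and 288 lower, or 444 and 367 under quantile normalization. For each label alone 1 of 3 was called, SLAMF7, against 3.71% of all genes called higher for shEGR1#8 and 3.55% for shEGR1#9. All 6 hairpin libraries lay above all 3 controls for 2 of the 3 members, against 12.9% of all genes. The median log2 difference of the 3 members was 0.22, and of all genes 0.03. Members that passed the filter did so in every group. The members were chosen with earlier results of these data known, so the shares above describe them and are not independent support. The test of shEGR1#9 against shEGR1#8 called none of the members and 0% of all genes in limma, with 267 genes at an unadjusted p under 0.05. In bulk RNA, fewer cells with a transcript and less of it per cell cannot be told apart.

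Markers of other cells were read beside these OCI-LY10 values, since NK cells also carry SLAMF7 and CD48. The 6 NK-cell markers summed to 1.83 to 2.41 FPKM with shEGR1#8 and 1.58 to 1.96 with shEGR1#9, against 1.13 to 1.41 in controls. Of them NKG7, GNLY and KLRD1 were listed at 0 in all 9 libraries, and NCR1, which alone passed the filter, differed by 0.41 log2 units (limma adjusted p = 0.074). The 10 T-cell markers summed to at most 0.366 FPKM and the 8 myeloid markers to at most 0.0793. The 8 B-cell markers summed to 3373.6 to 4077.3 FPKM with shEGR1#8 and 3489.4 to 3825.0 with shEGR1#9, against 2699.3 to 2939.4 in controls. Of these B-cell markers 2 rose, 0 fell and 6 did not pass, against 5.84% of all genes called higher. The median log2 difference of the 8 was 0.03, as for all genes. CD79A, a chain of the B-cell receptor, rose by 0.65 log2 units (limma adjusted p = 0.00926). CD74, the invariant chain of antigen presentation, rose by 0.84 (limma adjusted p = 0.00261). CD74 alone averaged 1254.5 and 1279.9 FPKM with shEGR1#8 and shEGR1#9, against 704.6 in controls. MS4A1, another of these markers, differed by −0.25 (limma adjusted p = 0.11). All 6 of its hairpin libraries lay below all controls, as for 8.22% of all genes. Leaving out control replicate 2 or 3 ended the CD79A call (limma adjusted p = 0.0527 and 0.0549). The part of these markers in the SLAMF7 and CD48 results was not tested.

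The 5 members under 1 FPKM were compared in OCI-LY10 by an exact permutation test of 6 hairpin libraries against 3 controls, two-sided, for which the smallest possible p is 0.0119. SLAMF1, a self-binding receptor that also serves measles virus for entry, was listed at 0 in 7 of 9 libraries and at 0.153 FPKM in shEGR1#8 replicate 3 and 0.125 in shEGR1#9 replicate 1 (exact permutation p = 0.5). SLAMF6, a receptor of lymphocytes, ranged over 0 to 0.0679 FPKM and LY9 (SLAMF3) over 0 to 0.148 (exact permutation p = 0.690 and 0.321). CD84 (SLAMF5) ranged over 0.0116 to 0.0512 and SDC1 over 0 to 0.0983 FPKM (exact permutation p = 0.524 and 1). None of the 5 passed 0.05 unadjusted, and levels this low limit what could be detected.

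In TMD8 and SUDHL2, with 1 library for each label, no test was possible, and a gene was counted when it was at least 0.5 log2 units off in the same direction with both hairpin labels. The TMD8 hairpin libraries correlated with SUDHL2 libraries at 0.957 to 0.976, and whether these lines are independent of each other was not tested. CD38 was the member that met the threshold, and it was higher in both lines. In TMD8 it stood at 1.68 and 1.60 FPKM with shEGR1#8 and shEGR1#9 against 0.514 in the control, 3.26 and 3.11 times the control level and 0.82 and 0.78 log2 units higher after the pseudocount. In SUDHL2 it stood at 8.79 and 7.77 FPKM against 2.29, 3.84 and 3.40 times the control level and 1.57 and 1.42 log2 units higher. These SUDHL2 differences lay at the 99.3 and 98.7 percentiles of the 11631 genes compared, and those in TMD8 at the 91.1 and 92.9 percentiles of 11807. As a description across tables, the hairpin levels of SUDHL2 lay within the range of the OCI-LY10 libraries, 7.10 to 9.41 FPKM. In TMD8 1 of the 4 members that reached 1 FPKM in a library was counted higher and 0 lower, against 8.83% and 16.9% of all genes. CD38 reached 1 FPKM in TMD8 only in the hairpin libraries. Its place among these 4 members and among the 11807 genes thus came through the group where it is high. Nothing is read from the count or from its TMD8 percentiles. With short RNA genes left out, the shares of all TMD8 genes turned round, to 20.7% higher and 7.9% lower. In SUDHL2 it was also 1 of 4 higher and 0 lower, against 5.23% and 2.85% of all genes, or 6.9% and 2.15% with short RNA genes left out.

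Other blood cells carry CD38 too, so their markers were read beside it. In TMD8 the NK-cell markers summed to 2.19 and 1.31 FPKM with shEGR1#8 and shEGR1#9 against 0.555 in the control, and the myeloid markers to 3.17 and 1.75 against 1.29. In SUDHL2 the NK-cell markers summed to 1.73 and 0.466 against 1.25 and the myeloid markers to 1.43 and 3.24 against 2.19. Most of the myeloid sum was LYZ, and GNLY and NCAM1 were listed at 0 in all 6 libraries. The largest part of the NK-cell sum in TMD8 was KLRD1. It had 2.19 and 1.01 FPKM with shEGR1#8 and shEGR1#9 against 0.339 in the control. In SUDHL2 KLRD1 had 0.912 and 0.466 against 0.956. The T-cell markers, mostly CD5, summed to 11.3 and 13.1 FPKM against 11.7 in TMD8 and to 11.03 and 11.5 against 9.10 in SUDHL2. The NK-cell and myeloid sums were thus above the control with both labels in TMD8 and on either side of it in SUDHL2, and their part in the CD38 result was not tested.

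The other expressed members did not move with both labels beyond 0.5 in these lines. SLAMF7 had 18.8 and 15.1 FPKM with shEGR1#8 and shEGR1#9 against 22.1 in the TMD8 control, and 22.1 and 15.5 against 19.1 in SUDHL2. CD48 had 39.5 and 33.6 FPKM against 55.0 in TMD8, and 50.2 and 46.3 against 49.2 in SUDHL2. In TMD8 both genes were thus lower with both labels, except that SLAMF7 with shEGR1#8 turned higher when short RNA genes were left out, and in SUDHL2 the labels fell on either side of the control. In TMD8 the log2 differences were −0.22 and −0.52 for SLAMF7 and −0.47 and −0.69 for CD48. With short RNA genes left out before rescaling, the median of all TMD8 genes shifted to 0.26 with each label, SLAMF7 became 0.17 and −0.23, and CD48 became −0.07 and −0.39. Relative to that median SLAMF7 was at −0.09 and −0.48, CD48 at −0.32 and −0.65 and CD38 at 0.76 and 0.65.

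SDC1 had 3.43 and 5.37 FPKM with shEGR1#8 and shEGR1#9 against 3.54 in TMD8, and 1.46 and 1.79 against 1.25 in SUDHL2. In SUDHL2 it was above the control with both labels, by 0.13 and 0.31 log2 units, and in TMD8 it differed by −0.04 and 0.49, the first of which turned to 0.28 with short RNA genes left out and to 0.08 under median-ratio scaling. The remaining SLAM members were under 1 FPKM in both lines. CD84 had 0.562 and 0.536 FPKM with shEGR1#8 and shEGR1#9 against 0.299 in TMD8, and 0.461 and 0.870 against 0.501 in SUDHL2. SLAMF6 had 0.611 and 0.423 against 0.445 in TMD8, and 0.531 and 0.624 against 0.802 in SUDHL2. SLAMF1 had 0.386 and 0.0967 against 0.380 in TMD8 and was listed at 0 with both labels against 0.0585 in SUDHL2. LY9 did not pass 0.0995 FPKM in any of these 6 libraries.

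**Figure D3:**
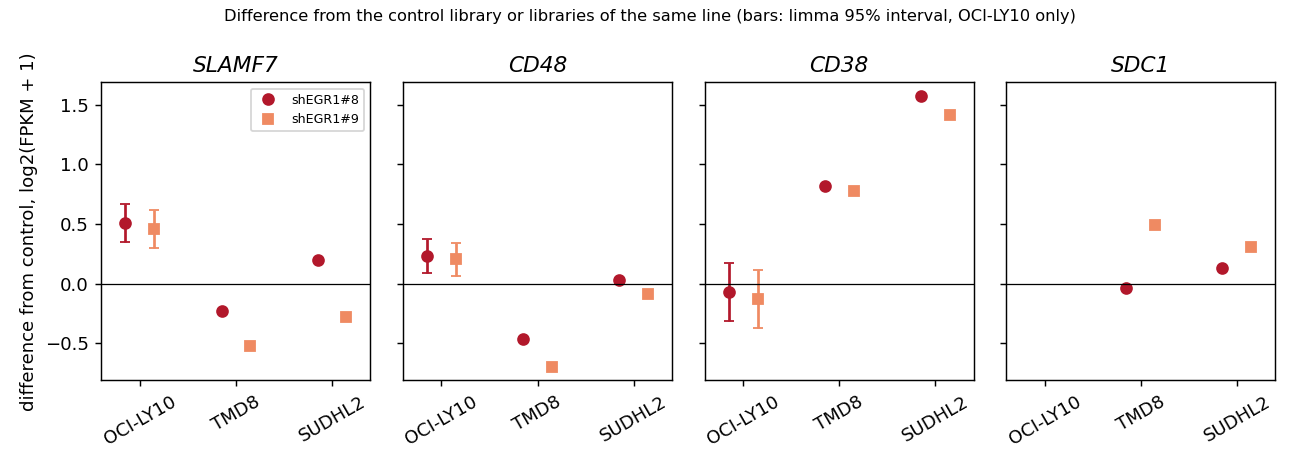
Difference of shEGR1#8 and shEGR1#9 from control on the log2(FPKM + 1) scale for SLAMF7, CD48, CD38 and SDC1, by cell line; bars are limma 95% intervals and exist for OCI-LY10 only, where SDC1 was not fitted. SLAMF7 and CD48 lie above 0 in OCI-LY10 and below it in TMD8 (where SLAMF7 with shEGR1#8 turns above 0 when short RNA genes are left out), and CD38 lies near 0 in OCI-LY10 and above it in the other lines.

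Ratios of members within a library do not depend on how the library was scaled. SLAMF7 over CD48 was 2.16 to 2.46 in the OCI-LY10 hairpin libraries and 1.84 to 2.02 in the controls, a log2 difference of 0.27 that did not overlap (exact permutation p = 0.0119, the smallest possible, adjusted over the 3 ratios 0.0179). The SLAMF7 difference thus exceeded that of CD48 in this line. CD38 over SLAMF7 was 0.180 to 0.255 in the hairpin libraries against 0.294 to 0.351 in controls (log2 difference −0.61, exact permutation p = 0.0119, adjusted 0.0179). The third ratio, CD38 over CD48, was 0.415 to 0.573 against 0.593 to 0.656 (log2 difference −0.34, exact permutation p = 0.0357, adjusted 0.0357). The CD38 ratios use the same libraries in which SLAMF7 and CD48 rose and CD38 did not pass. They are therefore not independent of those results.

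In the other lines CD38 over SLAMF7 went the other way, at 0.0893 and 0.106 with shEGR1#8 and shEGR1#9 against 0.0232 in TMD8, and at 0.398 and 0.50 against 0.120 in SUDHL2. SLAMF7 over CD48 was 0.475 and 0.450 against 0.402 in TMD8, and 0.439 and 0.335 against 0.388 in SUDHL2. In TMD8 SLAMF7 over CD48 was above the control with both labels, as it was in OCI-LY10. These single-library ratios have no test.

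**Figure D4:**
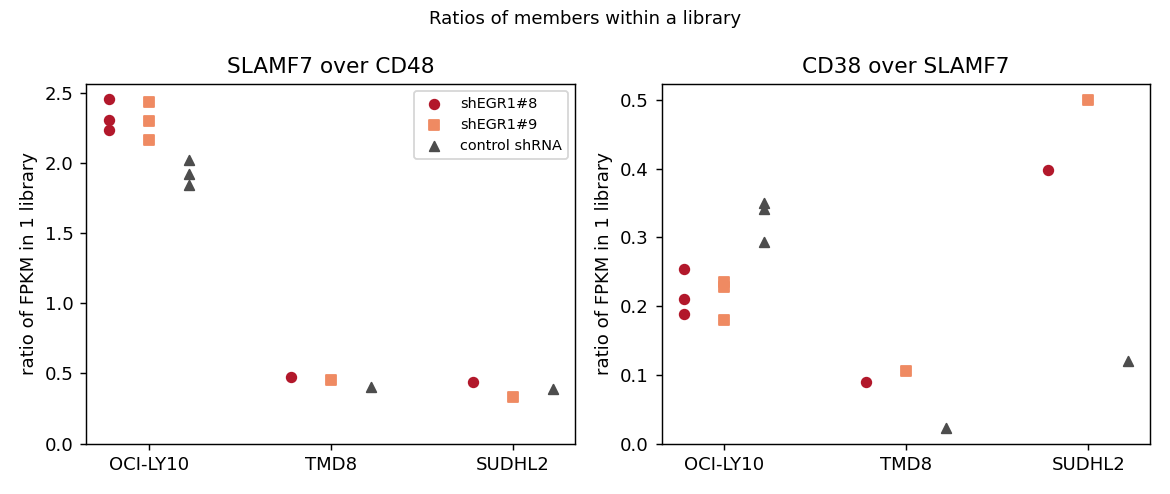
Ratio of SLAMF7 to CD48 and of CD38 to SLAMF7 in each library, by cell line and label, on linear axes that start at 0. CD38 over SLAMF7 is below the controls in all 6 OCI-LY10 hairpin libraries and above the control in all hairpin libraries of TMD8 and SUDHL2.

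Genes through which SLAM receptors signal were mixed in OCI-LY10. The adaptors SH2D1A (SAP) and SH2D1B (EAT-2), which couple the receptors to Src-family kinases, were listed at 0 in all 3 lines. Of 17 signalling genes tested, 3 rose, 1 fell and 13 did not pass, with a median log2 difference of 0.06 against 0.03 for all genes. Of all genes 5.84% were called higher and 2.71% lower. FYN, the kinase that SAP recruits, fell by 0.62 log2 units (SE 0.0666, limma adjusted p = 0.00107). It had 2.73 to 3.06 FPKM with shEGR1#8 and 2.54 to 3.14 with shEGR1#9, against 4.82 to 4.99 in controls, with no overlap (all 6 hairpin libraries lay below all controls for 8.22% of all genes).

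The 3 that rose were the Src-family kinase LYN and the inhibitory phosphatases PTPN6 (SHP-1) and INPP5D (SHIP-1). PTPN6 had 69.3 to 85.7 FPKM with shEGR1#8 and 70.9 to 82.2 with shEGR1#9, against 46.0 to 51.5 in controls, and rose by 0.63 log2 units (SE 0.079, limma adjusted p = 0.00242). LYN rose by 0.28 and INPP5D by 0.28 log2 units (limma adjusted p = 0.00582 and 0.0113). For each of the 3 genes all 6 hairpin libraries lay above all controls, as for 12.9% of all genes. INPP5D was no longer called when control replicate 2 or 3 was left out (limma adjusted p = 0.0562 and 0.0736).

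**Figure D5:**
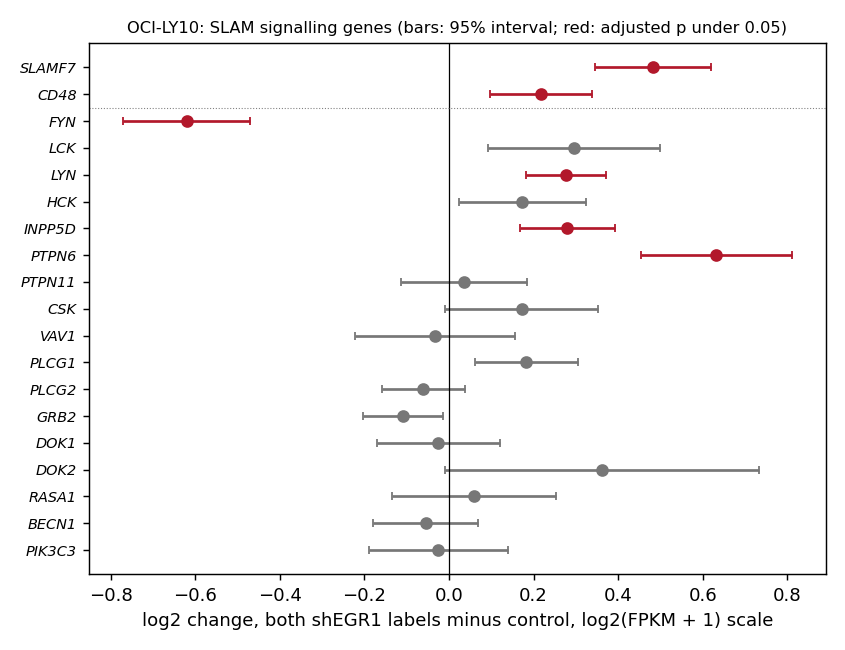
Log2 difference of both shEGR1 labels from control in OCI-LY10 for SLAMF7, CD48 and the 17 signalling genes tested, with limma 95% intervals; red marks an adjusted p under 0.05. FYN lies at −0.62, and PTPN6 at 0.63 lies farther above 0 than SLAMF7 at 0.48.

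Binding partners of CD48 and other SLAM receptors (CD244, SLAMF8, SLAMF9, CD2 and CD58, the other ligand of CD2) were all listed at 0 in OCI-LY10. A listed 0 can be a failed estimate. In TMD8 CD58 had 11.9 and 15.6 FPKM with shEGR1#8 and shEGR1#9 against 37.2 in the control, and in SUDHL2 15.2 and 11.9 against 14.7. The 12 tested genes that neighbour the SLAM cluster on chromosome 1 had a median log2 difference of 0.18, against 0.03 for all genes. Of them 11 did not pass and 1 rose, against 5.84% of all genes called higher. This was NCSTN, a subunit of gamma-secretase, at 0.26 log2 units (limma adjusted p = 0.035). The NCSTN call was lost under median-ratio scaling (limma adjusted p = 0.0644) and without any of 6 single libraries (0.0601 to 0.152).

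Genes around SDC1 and CD38 were compared in the same way. Of 16 tested genes of syndecans and heparan sulfate 2 rose, 0 fell and 14 did not pass, with a median of 0.18. Of all genes 5.84% were called higher and 2.71% lower. SULF2, an extracellular enzyme that trims sulfate groups from heparan sulfate, had 9.85 to 10.3 FPKM with shEGR1#8 and 10.3 to 10.7 with shEGR1#9, against 6.38 to 6.76 in controls. It rose by 0.58 log2 units (SE 0.0457, limma adjusted p = 0.000273). EXTL3, a glycosyltransferase that starts heparan sulfate chains, rose by 0.26 (limma adjusted p = 0.0195), a call that was lost without shEGR1#9 replicate 2 or any single control (0.0576 to 0.113). Of 10 tested genes of NAD and adenosine metabolism none was called, against 8.56% of all genes called in either direction, with a median of 0.07.

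Of 14 tested plasma cell genes 1 rose, 0 fell and 13 did not pass, against 5.84% of all genes called higher and 2.71% lower. The median was −0.04. The gene that rose was the survival kinase PIM2, by 0.35 log2 units (limma adjusted p = 0.0431). All 6 of its hairpin libraries lay above all controls, as for 12.9% of all genes. For XBP1, IRF4, POU2AF1 and SEC11C all 6 lay below all controls, as for 8.22% of all genes. None of these genes was called (limma adjusted p 0.0666 to 0.162). PIM2 lost its call with no filter on low values (limma adjusted p = 0.0781), under median-ratio scaling (0.065) and without any of 7 single libraries (0.0659 to 0.152). Of 87 members and list genes that reached 1 FPKM in both TMD8 and SUDHL2, 3 were at least 0.5 log2 units higher with both labels in both lines and 1 was lower, against 1.42% and 1.1% of the 11147 genes that reached it. Besides CD38 these were TNFRSF13B, NAPRT1 and SEC11C. CD38 reached 1 FPKM in TMD8 only in the hairpin libraries, so nothing is read from the count of genes higher. TNFRSF13B (TACI), a receptor for B-cell survival factors, had 59.2 and 64.4 FPKM with shEGR1#8 and shEGR1#9 against 31.5 in TMD8, and 62.6 and 75.3 against 41.1 in SUDHL2. NAPRT1, which makes NAD from nicotinic acid, had 4.62 and 6.62 against 2.51 in TMD8, and 6.24 and 5.20 against 2.04 in SUDHL2. SEC11C, a subunit of the signal peptidase, had 68.8 and 65.5 against 150.2 in TMD8, and 43.6 and 36.5 against 67.7 in SUDHL2.

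The genes whose pattern over the 9 OCI-LY10 libraries was most like that of each member were named by Pearson correlation of log2(FPKM + 1) across 10612 genes, as a description of libraries that share the same groups. For SLAMF7 they were DHRS9, BAIAP2L1 and ANKRD44 (r = 0.987, 0.983 and 0.982). For CD48 they were SAMHD1, VAMP3 and TGFBR2 (r = 0.975, 0.975 and 0.974), and for CD38 LBR, ZNF845 and MBD4 (r = 0.872, 0.859 and 0.856). Among the members SLAMF7 and CD48 correlated at 0.93, while CD38 correlated with SLAMF7 at −0.38 and with CD48 at −0.29.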

How the data were processed

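Complementary DNA was prepared for sequencing with the TruSeq RNA Library Prep Kit, per the labels' protocols. The submitters' processing notes name hg19 and the tools Bowtie2, HISAT and StringTie, with no version or role. The values the authors deposited, 1 table per line, were read as FPKM from their form, since neither labels nor headers name the unit. No source used here gives read totals, so depth is unknown and no counting interval is given. Lines with a repeated name (4, 10 and 10) were dropped, and so were 1 joined line and the 429 lines after it in the SUDHL2 table, which equal the end of the TMD8 table.

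Groups came from titles. In OCI-LY10, genes with at least 1 FPKM in at least 3 of 9 libraries were fitted on log2(FPKM + 1) in limma 3.58.1 (R 4.3.3) with a mean-variance trend and 1 mean per group; p-values were adjusted by Benjamini-Hochberg over 10612 genes, threshold 0.05. This scale understates changes of low genes. The labels do not say whether the libraries of a group stem from separate cultures; p-values therefore reflect only the spread between these libraries, possibly technical. Low members and ratios were compared by exact permutation over 84 splits. TMD8 and SUDHL2 were compared by difference only. Tables were handled in Python 3.11.15 (numpy 2.4.6, pandas 2.3.3, matplotlib 3.10.9).

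The members and the 10 gene lists were chosen with earlier results of these data known. Named genes were all members and the list genes called in OCI-LY10 for both labels. Also named were list genes at least 0.5 log2 units off with both labels in 2 lines. So were the 3 genes most correlated with each tested member. CD58, NCR1, CD5, CD7, KLRD1, LYZ, TNFRSF17, GPRC5D, MS4A1, SH2D1A, SH2D1B, XBP1, IRF4, POU2AF1 and the markers at 0 were named after their values were seen. Alternatives were a pseudocount of 0.1, other filters, median-ratio and quantile scaling, array weights, no trend, a replicate block, short RNA genes left out, and each OCI-LY10 library left out.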

Additional observations from a re-analysis of the deposited data

Results flagged for a closer look

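SLAMF7 and CD48 were above control in every hairpin library of OCI-LY10 and, on the deposited scale, below it in both hairpin libraries of TMD8, and this difference was not tested, since TMD8 has 1 library for each label. SLAMF7 was 0.51 and 0.46 log2 units above control with shEGR1#8 and shEGR1#9 in OCI-LY10, and −0.22 and −0.52 in TMD8. CD48 was at 0.23 and 0.21 in OCI-LY10, and at −0.47 and −0.69 in TMD8. Short RNA genes took 61.5 and 58.0% of the TMD8 hairpin libraries against 36.3% of their control, and with those genes left out SLAMF7 in TMD8 was at 0.17 and −0.23 and CD48 at −0.07 and −0.39. The part of this imbalance in the TMD8 values beyond that rescaling was not tested.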

How the results depend on the processing

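SLAMF7 was called in OCI-LY10 for both labels together and for each label alone under every alternative run. The count of members called for both labels was 1 instead of 2 under median-ratio scaling, quantile normalization and the replicate block, and 1 to 2 with a library left out. Same-numbered libraries did not deviate together (r −0.188 to 0.26, 3 of 9 pairs over 0.1, 5 of 9 libraries closest to their own number), and with the replicate block the limma adjusted p of CD48 was 0.0576. For shEGR1#8 and for shEGR1#9 alone the count was 2 with array weights, against 1, and 1 to 2 with a library left out; without shEGR1#8 replicate 3 CD48 was called for both. For shEGR1#9 against shEGR1#8 it was 0 with any library left out. Array weights called 1914 genes for both labels, against 908, and leaving out a library gave 281 to 1318, with 313, 313 and 281 without control replicate 1, 2 or 3; the causes were not tested. A pseudocount of 0.1 gave 2 members in TMD8 (CD38 and CD84 higher) and 2 in SUDHL2 (CD38 higher, SLAMF1 lower), against 1 in each. CD38 was past 0.5 in both lines under all 4 settings. The CD38 difference with shEGR1#8 turned to 0.0198 with array weights and ranged over −0.1318 to 0.0207 with a library left out. For shEGR1#9 against shEGR1#8 the sign also turned with a library left out, over −0.0943 to 0.0013 for SLAMF7, −0.0633 to 0.0261 for CD48 and −0.152 to 0.0221 for CD38, none of them called. Depth is unknown, which limits the members under 1 FPKM.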

Other observations

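TNFRSF17 (BCMA), a plasma cell receptor for B-cell survival factors, had 0.342 and 1.18 FPKM in TMD8 with shEGR1#8 and shEGR1#9 against 5.25 in the control. In SUDHL2 it had 2.35 and 3.93 against 2.44, and in OCI-LY10 it did not pass the test (log2 difference 0.01, limma adjusted p = 0.898). Its family member TNFRSF13B was higher in TMD8 and SUDHL2. Of 16 plasma cell genes that reached 1 FPKM in TMD8, 3 were counted lower and 2 higher, against 16.9% and 8.83% of all genes. GPRC5D, counted higher, reached 1 FPKM there only in the hairpin libraries, so nothing is read from the count. The B-cell surface gene MS4A1 (CD20) had 66.3 and 85.6 FPKM in TMD8 with shEGR1#8 and shEGR1#9 against 193.6 in the control. In SUDHL2 it had 80.1 and 68.0 against 87.4, and in OCI-LY10 it did not pass the test (log2 difference −0.25, limma adjusted p = 0.11). Of the 8 B-cell markers MS4A1 was the 1 counted lower in TMD8 and 0 were counted higher, against 16.9% and 8.83% of all genes. With short RNA genes left out, these shares of all TMD8 genes were 7.9% and 20.7%.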
